A study of Mus musculus with 4 samples.

Results

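The genes described here are the 49 that copy DNA in S phase: the origin recognition and licensing factors, the MCM helicase and its activators, the polymerases, the sliding clamp and its loader, the enzymes that finish the lagging strand, the enzymes that supply deoxynucleotides, the chromatin assembly factor and the transcription factors E2f1 and E2f2. They were chosen by name and function, with earlier results of these data known, from the gene names in the scanner files, and each gene was read from its probe with the brightest mean over the 4 arrays. All 49 were on the array and all passed the filter on dim probes, among 22490 genes tested. Their RNA was measured in regulatory T (Treg) cells grown in culture from C57BL/6 mice, on 4 single-colour Agilent arrays. The 2 control arrays carry RNA of Junbfl/fl mice, whose Junb alleles are floxed but which have no Cre, and the 2 others RNA of Junbfl/flCd4-Cre mice, which carry the same floxed alleles and express Cre recombinase from the Cd4 promoter, active in T cells from their development in the thymus. JunB is a subunit of the transcription factor AP-1. Per the labels, sorted naive CD4+ T cells of both genotypes were cultured for 3 days with an antibody to CD3 fixed to the plate at 1 μg/ml, an antibody to CD28 at 0.5 μg/ml, antibodies that block IFN-γ and IL-4 (5 μg/ml each) and TGF-β1 (5 ng/ml), the signal that turns naive cells towards the Treg fate. The labels give no age, do not say if the 2 arrays per genotype stand for different animals or cultures, and name colon as the tissue of the RNA extraction in place of the culture. The p-values therefore rest on a spread among arrays that may be technical only.

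Before a cell copies its DNA, the origin recognition complex, Cdc6 and Cdt1 load the ring-shaped MCM helicase onto origins in G1, and at the start of S phase Cdc45 and the GINS complex turn the loaded ring into an active helicase. Primase and polymerase alpha lay down primers, polymerases epsilon and delta extend them, and PCNA, loaded by replication factor C, keeps the polymerases on the template. Many of these genes are transcribed in late G1 by E2F factors once the retinoblastoma proteins release them, so their RNA rises with the entry of T cells into division after stimulation through the T cell receptor and CD28.

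The E2F recognition letters are shown because they are the promoter feature for which this group is known. Promoter windows from 250 bases before to 50 bases after the start (RefSeq, build GRCm38.p6) were at hand for 41 of the 49 genes, and were searched on both strands for TTTCCCGC, TTTGGCGC, TTTCGCGC and TTTGCCGC, of which matches may overlap. In 16 of the 41 (39.0%) at least 1 match was found, against 4.05% of the 11957 tested genes with a window and 2.26% of all 32851 windows. The following 160 bases end at the base before the start, with E2F matches in capitals. Cdc6, Mcm6, Gins3, Pola1 and Rfc3 are, within their role, the genes with the smallest p among those with a match before the start, and Orc1 was added after its values were seen because it has the most negative difference of the group.
Cdc6, chr11:98907991-98908150, plus strand: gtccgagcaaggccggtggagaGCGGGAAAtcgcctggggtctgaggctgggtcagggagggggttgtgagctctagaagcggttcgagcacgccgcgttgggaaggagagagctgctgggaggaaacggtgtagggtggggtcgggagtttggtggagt
Orc1, chr4:108579294-108579453, plus strand: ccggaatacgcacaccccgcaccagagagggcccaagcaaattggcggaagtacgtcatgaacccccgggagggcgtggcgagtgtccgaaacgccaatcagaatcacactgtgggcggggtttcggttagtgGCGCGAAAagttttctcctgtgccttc
Mcm6, chr1:128359706-128359865, minus strand: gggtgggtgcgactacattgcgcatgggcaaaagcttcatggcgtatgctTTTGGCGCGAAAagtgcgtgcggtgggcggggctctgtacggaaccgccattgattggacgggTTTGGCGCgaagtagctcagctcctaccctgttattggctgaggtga
Gins3, chr8:95633399-95633558, plus strand: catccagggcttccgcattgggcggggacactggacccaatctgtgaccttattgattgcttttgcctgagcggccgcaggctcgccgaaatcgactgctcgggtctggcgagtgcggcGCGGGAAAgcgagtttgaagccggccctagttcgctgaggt
Pola1, chrX:93632156-93632315, minus strand: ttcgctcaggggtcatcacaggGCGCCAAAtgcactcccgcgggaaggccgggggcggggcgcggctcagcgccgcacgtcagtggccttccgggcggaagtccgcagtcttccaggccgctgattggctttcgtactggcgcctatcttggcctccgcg
Rfc3, chr5:151651209-151651368, minus strand: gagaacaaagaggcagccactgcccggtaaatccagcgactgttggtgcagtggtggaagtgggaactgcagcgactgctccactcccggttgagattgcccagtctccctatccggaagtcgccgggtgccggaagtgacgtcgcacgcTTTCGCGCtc
The Mcm6 stretch holds 3 matches, of which those whose first bases lie 110 and 106 bases before the start overlap in a single run and the other begins 47 bases before it. In Cdc6 and Pola1 the match begins 138 bases before the start, and in Orc1, Gins3 and Rfc3 it begins 27, 41 and 10 bases before it. Members with a match anywhere in the window had a median log2 difference between genotypes of -1.04 and those without of -1.16. Other promoter letters were also counted. CCAAT stood in 25 of the 41 genes (61.0%, against 42.6% of tested genes), the Sp1 letters GGGCGG in 32 (78.0%, against 59.6%) and the CHR letters TTTGAA, a motif of late cell cycle genes, in 6 (14.6%, against 15.5%).

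Levels below are log2 processed signals less the array's own 75th percentile, and differences are Junbfl/flCd4-Cre minus control. Between 59.4% and 66.3% of non-control spots were well above background per array, no such spot was saturated, and all 49 probes used were well above background on all 4 arrays. The 75th percentile of processed signal over probes was 151 and 145 on the controls, against 119 and 101 on the others, and scaling to the median instead moved the median difference of all genes to -0.52. That scaling called 46 of the 49 replication genes lower, where 33.1% of all genes tested were called lower, and 21.0% of all its calls over the table were higher, against 83.1% with the percentile. Junb checks the labels: a probe at chr8:87501881-87501940 (mm9) read processed signals of 47.2 and 31.7 on the controls, against 4.11 and 1.47, not well above background, on the others. The brightest Junb probe read 9791 and 9072 on the controls, 1053 on the library labelled Junbfl/flCd4-Cre 1 and 10078 on the library labelled Junbfl/flCd4-Cre 2, so it does not follow the label on the latter; every direction here rests on the labels.

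All 49 replication genes had a lower mean on the Junbfl/flCd4-Cre arrays than on the controls, where 49.5% of all genes tested did; Rpa2 turned positive under quantile normalization, and Orc4 and Pole2 when all their probes were averaged. In RNA from whole cultures, fewer cells in S phase and less of these transcripts per cycling cell cannot be told apart. The median log2 difference of the 49 was -1.15, a level of 45.0% of control, and the median over all 22490 genes was 0.01. Under quantile normalization the median of the 49 was -0.82. Single genes ranged from -2.03 (Orc1, 24.5% of control) to -0.04 (Rpa2, 97.4% of control). On the probes used, both Junbfl/flCd4-Cre arrays lay below both controls in 47 genes, the exceptions being Pola2 and Rpa2. Over all genes tested 38.5% did so. At an adjusted p under 0.05 (limma, Benjamini-Hochberg over all genes), 1 member, Pola1, fell and none rose, against 1.43% of all genes called lower and 7.04% called higher. At an unadjusted p under 0.05 there were 41 members, all lower, against 19.1% of all genes lower at that threshold. After Pola1 the smallest adjusted p was that of Cdc45 (0.0538).

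**Figure D1:**
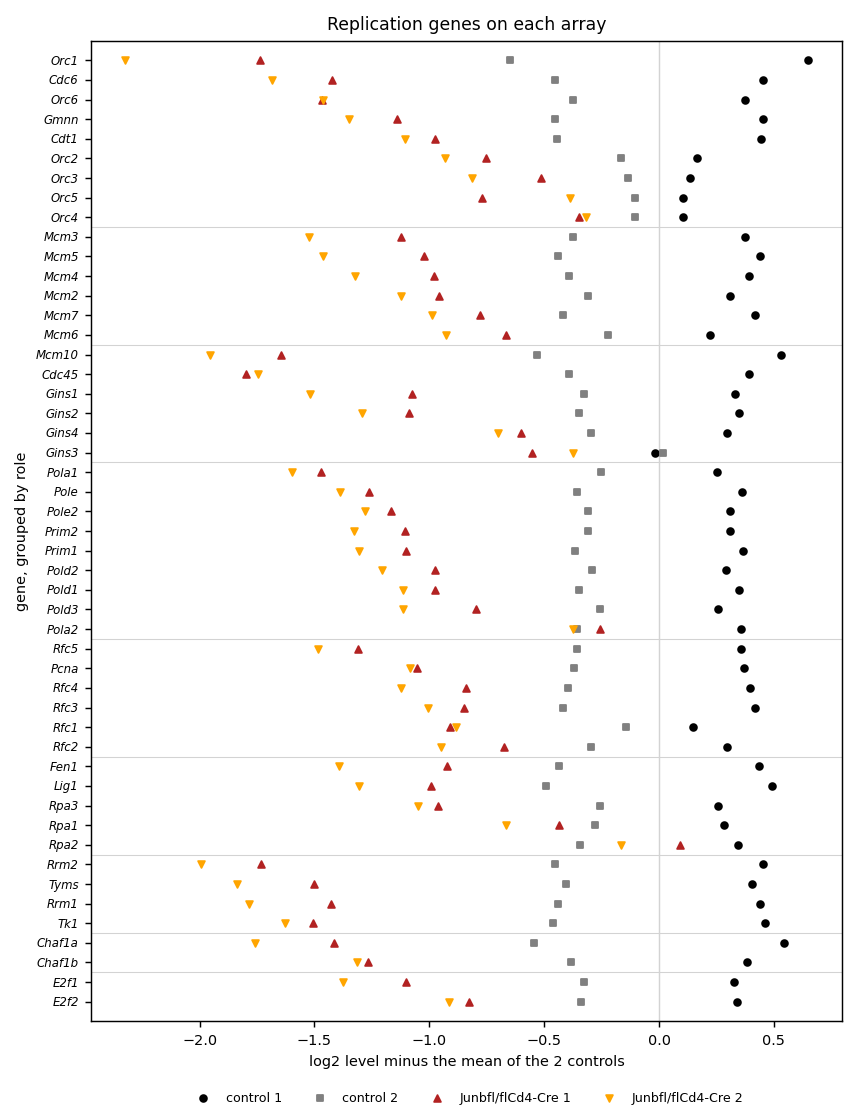
Log2 level of each of the 49 replication genes on the 4 arrays, minus the mean of the 2 controls of that gene, with genes grouped by role in the order of the text. Control 1 (black circles) lies to the right of control 2 (grey squares) in 48 genes, and both Junbfl/flCd4-Cre arrays (triangles) lie to the left of both controls in 47.

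The controls themselves differed. Control 1 was above control 2 in 48 of 49 genes, by a median of 0.71 log2, with Gins3 (-0.04) the exception and Orc1 (1.30) the widest gap, while the same gap over all genes had a median of 0.02. The Junbfl/flCd4-Cre arrays were closer together, with array 1 above array 2 in 43 genes by a median of 0.21. The median level of the 49 genes, on the log2 scale relative to each array's 75th percentile, was 4.29 and 3.65 on controls 1 and 2 and 2.97 and 2.76 on the Junbfl/flCd4-Cre arrays 1 and 2. Most members thus put the arrays in the same order, with control 1 highest and the Junbfl/flCd4-Cre array 2 lowest. Without control 1 the median difference of the 49 was -0.76, and without control 2 it was -1.53. Leaving out an array leaves 1 array in its genotype, so that the spread comes from the other genotype alone. In these fits limma called no gene in the whole table. With an intensity trend in the variance model 23 members were called lower, against 8.45% of all genes.

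The array positions in the file headers place both number 1 arrays in row 1 of the slide and both number 2 arrays in row 2, so the comparison could also be made within each row. Between the number 1 arrays all 49 genes were lower in Junbfl/flCd4-Cre, by a median log2 difference of -1.42, and between the number 2 arrays 48 were lower, by a median of -0.91, with Rpa2 at 0.18. With the array number as a block in the limma fit, 38 of the 49 genes fell at an adjusted p under 0.05, where 9.28% of all genes were called lower and 21.2% higher. The 11 that did not pass were Orc4, Orc5, Cdt1, Mcm7, Gins3, Gins4, Pola2, Rfc3, Rpa1, Rpa2 and E2f2. The block therefore changes the call for every one of the 38 but Pola1, and it leaves 1 residual degree of freedom per gene.

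**Figure D2:**
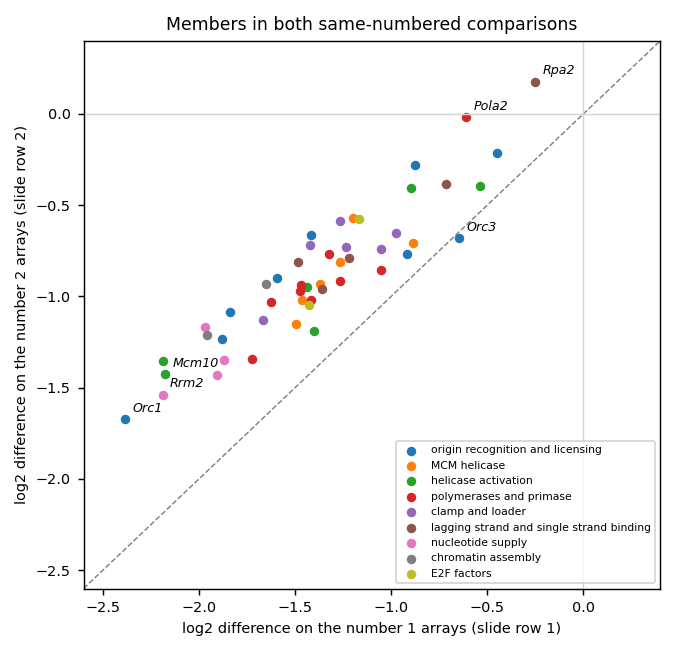
Log2 difference between genotypes within slide row 1 (x axis, number 1 arrays) and within slide row 2 (y axis, number 2 arrays) for the 49 genes, coloured by role, with the line of equal values dashed. Both differences are negative for 48 genes, and all but Orc3 lie above the line, where the number 1 difference is the more negative.

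Bright genes as a whole were lower on the Junbfl/flCd4-Cre arrays under this scaling, and replication genes are bright. When all genes tested were put into 10 equal classes by their mean control signal, 14 members fell in the brightest class (class 10) and 20 in class 9. The median log2 difference was -0.40 in class 9 and -0.41 in class 10, against 1.83 in class 1, the dimmest. Less the median of each gene's own class, the members' difference had a median of -0.74, and 48 of 49 were below their class, with Rpa2 at 0.23 the exception. The member farthest below its class was Orc1 (-1.76), followed by Cdc45 (-1.67). The count of genes without overlap has to be read the same way, because 73.2% of all genes in class 9 and 75.2% in class 10 were lower on both arrays without overlap. Of all genes, limma at an adjusted p under 0.05 called 2.31%, 1.87% and 2.36% lower in classes 8, 9 and 10. The 1 call among the 49 members was near these shares. With classes formed from the mean over all 4 arrays the members' median less their class was -0.80, and without control 1 it was -0.46. The share called lower among bright genes was not counted at an unadjusted p, with the block, with the trend or with scaling to the median. The shares of all genes given beside those counts include the dim genes, so they are not shares of genes of like brightness.

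**Figure D3:**
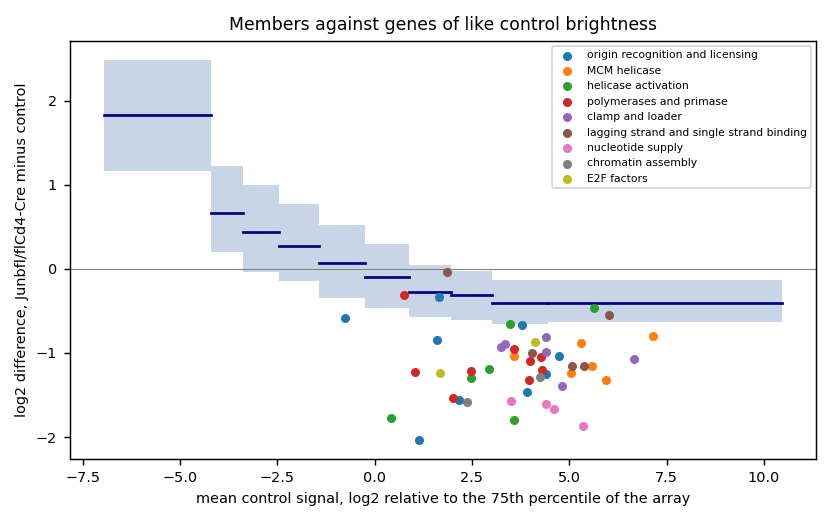
Log2 difference between genotypes (y axis) against the mean control signal on the log2 scale (x axis). Dark lines and pale boxes are the median and the middle 50% of all genes in each of 10 classes of control signal, and points are the 49 replication genes by role, of which 48 lie below the line of their class.

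Origin recognition and licensing factors formed the widest range. Orc1, the ATPase subunit whose level swings through the cell cycle, had log2 levels of 1.80 and 0.50 on the controls, against -0.59 and -1.17 on the Junbfl/flCd4-Cre arrays. Its difference was -2.03 ± 0.53 (SE, n = 2 arrays per genotype; adjusted p = 0.0803). Both Junbfl/flCd4-Cre arrays were below both controls, which were themselves far apart. Orc6, the small subunit, read 4.28 and 3.54 against 2.44 and 2.45, a difference of -1.46 ± 0.30 (adjusted p = 0.0628), and the Junbfl/flCd4-Cre arrays nearly coincided. Cdc6, the loader ATPase that joins the complex in G1, read 2.61 and 1.71 against 0.73 and 0.47. At -1.55 (adjusted p = 0.0720) it stood near Orc6. Orc2, a core subunit of the complex, read 1.78 and 1.45 against 0.86 and 0.68 (-0.84 ± 0.19, adjusted p = 0.0700). The other core subunits Orc3, Orc4 and Orc5 gave -0.67, -0.33 and -0.58. Orc4, with the largest p of the role, read 1.76 and 1.55 on the controls, against 1.31 and 1.34 on the others, a narrow step without overlap. Orc2 to Orc5 were thus at 55.8%, 63.0%, 79.5% and 67.0% of control, while Orc1, Orc6 and Cdc6 were at 24.5%, 36.2% and 34.1%. These groups were formed after the values were seen, and the difference between them was not tested. Cdt1 and Gmnn, of the same role, lay between the groups. Cdt1, which brings the MCM ring to the origin, gave -1.04, and Gmnn, which encodes geminin, the inhibitor of Cdt1 that blocks a further round of licensing, gave -1.25. Neither was called (adjusted p = 0.111 and 0.0901).

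The MCM helicase subunits lay close together, as 6 genes between -1.32 (Mcm3) and -0.80 (Mcm6), and in each both Junbfl/flCd4-Cre arrays were below both controls. Mcm3 read log2 levels of 6.31 and 5.57 on the controls, against 4.82 and 4.42 on the others (-1.32 ± 0.33, adjusted p = 0.0775). Mcm2 read 3.90 and 3.28 against 2.64 and 2.47 (-1.04 ± 0.27, adjusted p = 0.0790), and Mcm4 5.98 and 5.19 against 4.61 and 4.26. These encode parts of the same ring, and they were at 40.0%, 48.6% and 45.0% of control. Mcm6 read 7.38 and 6.94 against 6.49 and 6.23, at 57.6% of control, and Mcm7, with the largest p of the ring (adjusted p = 0.135), read 5.71 and 4.88 against 4.51 and 4.31. Mcm5 was at 42.3% of control. No MCM subunit was called without the block, and all but Mcm7 were with it, from an adjusted p of 0.0208 for Mcm3 to 0.0396 for Mcm6.

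Among the factors that activate the helicase, Mcm10 and Cdc45 stood lowest. Cdc45, which with GINS and the MCM ring makes up the active helicase, read 0.81 and 0.02 on the controls, against -1.38 and -1.33 on the Junbfl/flCd4-Cre arrays. Its difference of -1.77 ± 0.31 missed the threshold by little (adjusted p = 0.0538; 0.0260 with the block). Mcm10, which helps to start the activated helicase, read 4.12 and 3.06 against 1.95 and 1.64 (-1.80 ± 0.42, adjusted p = 0.0716). They were at 29.3% and 28.7% of control. The GINS subunits ranged from -1.30 to -0.47. Gins1 read 2.81 and 2.15 against 1.40 and 0.96 and Gins2 3.29 and 2.60 against 1.86 and 1.65, with differences of -1.30 ± 0.32 and -1.19 ± 0.30. Gins4, with the largest p of the role, read 3.78 and 3.19 against 2.88 and 2.78 (-0.65 ± 0.25, adjusted p = 0.140), and Gins3 gave -0.47 ± 0.15. Gins3 was near the median of its brightness class, at -0.05 from it, while Gins1 and Gins2 were -0.98 and -0.88 from theirs.

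Pola1, the catalytic subunit of polymerase alpha, fell, and is the only one of the 49 called without the block. It read log2 levels of 2.27 and 1.76 on the controls, against 0.54 and 0.42 on the Junbfl/flCd4-Cre arrays. Its difference was -1.53 ± 0.23 (SE, n = 2 arrays per genotype; adjusted p = 0.0447), or 34.5% of control, and -1.72 and -1.34 within slide rows 1 and 2. Its probe lies at chrX:90550189-90550248 (mm9), and a dimmer Pola1 probe gave -1.38 (adjusted p = 0.0728 among all probes). Its difference was -1.28 to -1.79 when an array was left out, where no gene of the table was called. The call was lost with quantile normalization (-1.38, adjusted p = 0.0628), with normexp, with no filter on dim probes, with probes averaged and with the authors' values. Pole, the catalytic subunit of the leading strand polymerase epsilon, read 4.33 and 3.62 against 2.71 and 2.59 (-1.33 ± 0.30, adjusted p = 0.0679). Its accessory subunit Pole2 read 1.34 and 0.72 against -0.14 and -0.25 (-1.22 ± 0.26, adjusted p = 0.0657). The primase subunits Prim2 and Prim1, which make the RNA primers, gave -1.22 and -1.20, with Prim2 at 2.78 and 2.16 against 1.36 and 1.14. The delta subunits Pold1, Pold2 and Pold3 were between -1.09 and -0.95. Pola2, the accessory subunit of polymerase alpha, was on the probe used not lower without overlap as Pola1 was. It read 1.11 and 0.40 on the controls, against 0.50 and 0.38 on the others, so that control 2 lay between the Junbfl/flCd4-Cre arrays (-0.31 ± 0.29, adjusted p = 0.441). Without control 1 Pola2 gave 0.040. Its probes disagreed. A dimmer Pola2 probe read -1.33 and -2.08 on the controls, against -2.84 and -2.54 on the others, a difference of -0.98 without overlap. It alone among the Pola2 probes is annotated to a RefSeq transcript, and the probe used is not. Further dimmer Pola2 probes gave -0.31 and -0.06.

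The clamp and its loader lay between -1.40 (Rfc5) and -0.81 (Rfc2), in each case with no overlap between genotypes. Pcna, the sliding clamp, read 7.02 and 6.29 on the controls, against 5.60 and 5.57 on the Junbfl/flCd4-Cre arrays, 47.6% of control (-1.07 ± 0.30, adjusted p = 0.0865). Rfc1, the large subunit of the loader, had the narrowest spread among them. It read 3.50 and 3.20 against 2.44 and 2.47 (-0.90 ± 0.17, adjusted p = 0.0590). Of the small subunits, Rfc5 read 5.17 and 4.46 against 3.51 and 3.33 (adjusted p = 0.0645) and Rfc2 4.71 and 4.12 against 3.74 and 3.46. Rfc3, with the largest p of the role, read 3.67 and 2.83 against 2.40 and 2.25 (-0.93 ± 0.33, adjusted p = 0.124), and Rfc4 gave -0.98. The loader subunits other than Rfc3 passed with the block, Rfc5 with the lowest adjusted p among them (0.0248).

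Lagging strand enzymes and the proteins that coat single-stranded DNA ranged from -1.16 to -0.04. Fen1, the nuclease that trims the flap of each fragment, read 5.83 and 4.96 against 4.47 and 4.0 (-1.16 ± 0.38, adjusted p = 0.106). Lig1, the ligase that seals the fragments, read 5.56 and 4.58 against 4.08 and 3.77 (-1.15 ± 0.40, adjusted p = 0.115). Both were at about the same share of control, 44.8% and 45.1%. The subunits of replication protein A, which also serves in DNA repair, held the ends of their own range at -1.01 and -0.04. Rpa3, the smallest, read 4.31 and 3.79 against 3.09 and 3.0 (-1.01 ± 0.23, adjusted p = 0.0711). Rpa1, the largest, read 6.31 and 5.75 against 5.59 and 5.36, at 68.3% of control (adjusted p = 0.185). Rpa2, the middle subunit, read 2.22 and 1.53 on the controls, against 1.96 and 1.70 on the others, with the genotypes overlapping (-0.04 ± 0.30, adjusted p = 0.930). Its direction was not stable: it was 0.17 with quantile normalization, 0.14 with normexp background and in the authors' deposited table, 0.31 without control 1 and 0.09 without the Junbfl/flCd4-Cre array 2. A dimmer Rpa2 probe gave -0.80.

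The nucleotide supply genes had the lowest median of the roles, -1.64, and ranged from -1.86 to -1.57. Rrm2, the small subunit of ribonucleotide reductase and the one whose level limits the enzyme outside S phase, read 5.80 and 4.89 on the controls, against 3.61 and 3.35 on the Junbfl/flCd4-Cre arrays. The difference of Rrm2 was -1.86 ± 0.37 (adjusted p = 0.0601). Rrm1, the large subunit, read 4.84 and 3.96 against 2.97 and 2.61 (-1.61 ± 0.37, adjusted p = 0.0701). The subunits were at 27.5% and 32.8% of control. Tyms, thymidylate synthase, read 5.01 and 4.2 against 3.10 and 2.76 (-1.67 ± 0.34, adjusted p = 0.0631). Tk1, thymidine kinase of the salvage route, read 3.95 and 3.03 against 1.99 and 1.86 (-1.57 ± 0.36, adjusted p = 0.0705). All were lower without overlap, and with the block all fell (adjusted p from 0.0175 for Tyms to 0.0302 for Tk1).

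Chaf1a and Chaf1b, the subunits of the chromatin assembly factor that places histones behind the fork, read 2.92 and 1.83 against 0.96 and 0.62 and 4.63 and 3.87 against 2.98 and 2.94. Their differences were -1.59 ± 0.43 and -1.29 ± 0.31 (adjusted p = 0.0845 and 0.0731). In both genes the arrays stood in the order control 1, control 2, then the Junbfl/flCd4-Cre arrays. E2f1, an activator of many of these genes, read 2.0 and 1.35 against 0.57 and 0.30 (-1.24 ± 0.29, adjusted p = 0.0716). E2f2, another activator, read 4.46 and 3.78 against 3.30 and 3.21 (-0.87 ± 0.28, adjusted p = 0.104). With the block E2f1 fell (adjusted p = 0.0244) and E2f2 did not pass (adjusted p = 0.0576).

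**Figure D4:**
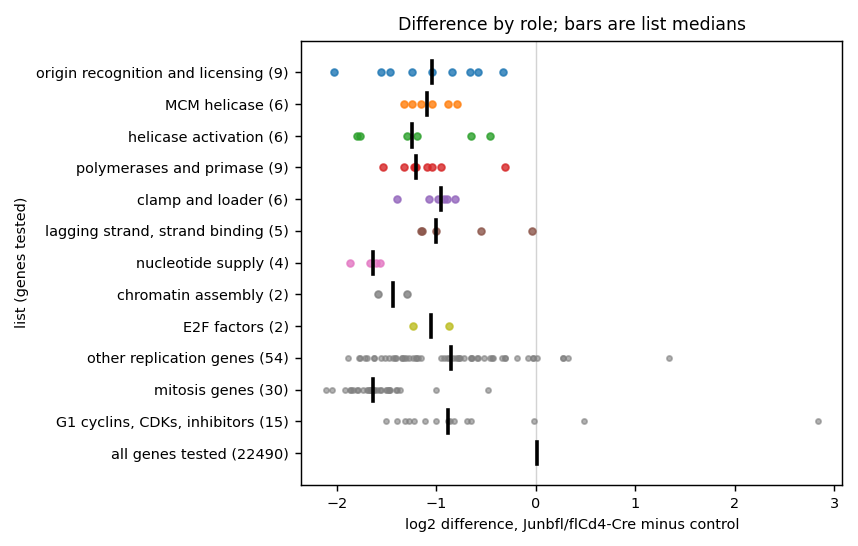
Log2 difference between genotypes for each gene (points) in the 9 roles and in 3 comparison lists, with the median of each list as a bar and the number of genes tested in brackets; for all genes tested only the median (0.01) is drawn. Role medians run from -1.64 (nucleotide supply) to -0.95 (clamp and loader), and the mitosis genes have a median of -1.63.

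For 30 members more than 1 probe passed the filter, which gave 45 further probes. Of these 38 were lower and 7 higher on the Junbfl/flCd4-Cre arrays, with a median log2 difference of -0.98 and a median distance of 0.20 from the probe used. Mcm3 had 4 probes, and they agreed closely at -1.32, -1.33, -1.31 and -1.31. Pole2 had a probe that went the other way. The probe used, at chr12:70307465-70308864 (mm9), gave -1.22, while a dimmer probe at chr12:70322698-70322974 (mm9) had processed signals of 55.4 and 45.5 on the controls, against 150 and 130 on the Junbfl/flCd4-Cre arrays. Its log2 difference was 1.90 (adjusted p = 0.0277 among all probes), and it was the only one of the 45 further probes called. With the mean over its probes Pole2 gave 0.34. The 6 other positive probes belonged to Orc3 (0.27 and 0.00), Orc4 (0.24, 0.12 and 0.07) and Orc5 (0.06). With the mean over its probes Orc4 gave 0.024. What these probes read, a transcript variant or another RNA, was not tested.

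In the authors' deposited table, 48 of the 49 genes had a negative log2 difference (median -0.86), with Rpa2 at 0.14 the exception. None of the 49 had an adjusted p under 0.05 there, the lowest being 0.0628. The authors' deposited table gave Orc1 -1.56, Rrm2 -1.53, Cdc6 -1.48 and Mcm10 -1.46, and Gins3 -0.11 and Orc4 -0.0956. Orc1 and Rrm2 were the most negative of the 49 there as they were here.

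Other replication genes, a list of 54 that holds the kinases, checkpoint mediators, nucleases, histone chaperones and E2F family members around this machinery, were all tested. Of them 49 had a negative difference (median -0.85), where 49.5% of all genes did. At an adjusted p under 0.05, 2 fell and none rose, against 1.43% of all genes called lower and 7.04% higher. With the block 32 fell and 1, Ung, rose, against 9.28% of all genes lower and 21.2% higher. E2f7, a repressor of E2F targets that is itself made in S phase, fell by 1.69 ± 0.26 (log2; adjusted p = 0.0470), with control levels of 1.22 and 0.59 against -0.77 and -0.80. Pole3, a small histone-fold subunit of polymerase epsilon, fell by 1.55 ± 0.26 (log2; adjusted p = 0.0493), with control levels of 3.47 and 2.89 against 1.70 and 1.56. In both genes the genotypes did not overlap, and when an array was left out E2f7 gave -1.38 to -2.01 and Pole3 -1.26 to -1.85. Both calls were lost with quantile normalization, with normexp, with no filter, with probes averaged and with the authors' values, and E2f7 was then -0.86 with probes averaged (adjusted p = 0.0849) and -0.78 with the authors' values (adjusted p = 0.0721). Clspn (claspin) and Tipin, checkpoint mediators at the fork, gave -1.77 and -1.63 (adjusted p = 0.0503 and 0.0514), and E2f8, the relative of E2f7, gave -1.89. Dut, which keeps uracil out of DNA, Mcm8, an MCM relative of DNA repair, and Mtbp, a factor of helicase activation, gave -1.72, -1.21 and -0.96. Positive differences were found for Dbf4, the activating subunit of the kinase that starts origins, and for Mcm9, Rbl2, Tfdp2 and Ung, at 0.28, 0.32, 0.28, 0.01 and 1.34; these genes were chosen after their values were seen, as the exceptions. Ung, uracil DNA glycosylase, read 6.18 and 8.05 on the controls, against 7.21 and 9.70 on the others, so the arrays followed their number more than their genotype. Scaling to the median turned Dbf4, Mcm9, Rbl2 and Tfdp2 negative.

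Compared with neighbouring parts of the cell cycle, the 49 genes lay between a list of 30 mitosis genes (median -1.63, all negative) and 15 tested genes of G1 cyclins, CDKs and CDK inhibitors (median -0.88, with 13 negative). The gap between control 1 and control 2 had a median of 0.84 in the mitosis genes, 0.71 in the replication genes and 0.32 in the G1 list. Less the genes of like brightness the medians were -1.30, -0.74 and -0.74. None of these differences between lists was tested.

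Markers of cell types were measured beside the replication genes, as the sum over a list of signals relative to each array's 75th percentile and as single markers. All 10 T cell markers on the array were well above background on every array, summing to 1014 and 1006 on the controls, against 925 and 835 on the others, with 5 higher and 5 lower, and Cd2 (-1.33) and Thy1 (-0.98) fell. The 5 Treg markers were also above background throughout and summed to 185 and 145 against 106 and 120, but they went both ways. Ctla4 (-1.47) fell and Ikzf2 (4.56) rose (limma, adjusted p = 0.0478 and 0.0324), while Il2ra, Foxp3 and Tnfrsf18 gave -1.67, -1.20 and 0.13 and were not called. For the 8 B cell markers the sums were 4.0 and 1.72 on the controls, against 8.23 and 5.63 on the others; all 7 tested had a positive difference, and Ms4a1 (3.18) and Ebf1 (1.67) rose. For the 12 myeloid markers the sums were 268 and 263 against 460 and 429, set by the brighter markers. The median log2 level of the 9 tested was -1.90 and -2.74 on the controls, against -0.48 and -1.61 on the others. On the controls 9 and 5 of the 12 were well above background, against 10 and 9 on the others. All 9 tested had a positive difference, none was called, and Adgre1 and Fcgr1 were above background on no array. The 9 colon epithelium markers summed to 0.558 and 0.611 against 0.823 and 0.803. Of them Krt20, Cdh1, Vil1 and Muc2 were above background on no array and the other 5 on at least 1; of the 4 tested, 3 were higher without overlap and Epcam gave -0.48 (median 1.05), none of them called. The 7 stroma markers summed to 28.9 and 24.3 against 17.7 and 18.1, a sum set by its brightest marker, Acta2 (-0.63, not called). The 4 other stroma markers tested were all higher (median of the 5 1.14), and Col1a1 and Dcn, not well above background on the controls, rose by at least 1.88-fold and 3.22-fold (adjusted p = 0.0400 and 0.0298); Pdgfra was above background on no array. The 2 CD8 markers summed to 2.92 and 2.51 against 3.69 and 4.19, and the 3 NK markers to 0.0278 and 0.0853 against 0.0648 and 0.643. Dim genes as a whole were higher on the Junbfl/flCd4-Cre arrays under this scaling. Less genes of like brightness, the median difference of the tested markers was 1.01 for B cells and 0.74 for myeloid cells. It was 0.70 for stroma and -0.0008 for colon epithelium. The part of other cell types in the differences of the replication genes was not tested.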

How the data were processed

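RNA of 4 samples was measured on single-colour arrays, 2 per genotype, grouped by the sample titles. Per the file headers, scans were read with Agilent Feature Extraction 11.5.1.1, and the deposited intensity values are processed signals, background-subtracted and detrended within an array but not scaled between arrays; mean and local background intensity and flags per spot were deposited too. A table of log2 values by array, with log2 differences and p-values, was deposited as well, and the sources used here do not give how the authors made it.

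Between 108 and 215 outlier spots per array and control spots were left out, spots of a probe were averaged (56310 probes), and log2 processed signal minus each array's 75th percentile over probes was used as the level. A probe passed if 1 genotype or both had it well above background on each array, and a gene was read from its brightest probe (mean of the 4 arrays), by the gene name in the files. Genotypes were compared with limma 3.58.1 (R 4.3.3; lmFit, eBayes, no covariate), adjusted over 22490 genes by Benjamini-Hochberg and called at an adjusted p under 0.05, after the fit was tested on simulated data. With 2 against 2 arrays no permutation test could pass 0.05, and the number of arrays limits the precision.

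All 4 arrays shared 1 slide and 1 scan, so neither could be a block. The array number, which in the headers goes with the row of the slide, was an alternative block; deviations from the group mean correlated at 0.50 between same-numbered arrays across genes, which are not independent replicates. Of the 49 members, up to 4 per role with the smallest p and the one with the largest p are given on every array, and of the 54 other replication genes the 8 with the smallest p are named. In each role with an E2F match before the start, the promoter of the matching gene with the smallest p is printed. Orc1 was added after its values were seen. In the other roles no window at hand held a match before the start. The members and lists were chosen with earlier results of these data known. Figures were made with matplotlib 3.10.9 in Python 3.11.15.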

Additional observations from a re-analysis of the deposited data

How the results depend on the processing

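The alternatives were another scaling, another background correction, other filters, the mean of probes, updated gene names, an intensity trend, the replicate block, the authors' values and leaving out each array. The number of members called lower was 1 in the main analysis, where 1.43% of all genes were called lower. In brightness classes 9 and 10 the share called lower was 1.87% and 2.36%. With the alternatives the number of members changed. It was 46 with each array scaled to its median, 38 with the replicate block and 23 with an intensity trend. Of all genes 33.1%, 9.28% and 8.45% were called lower there. The share among genes of like brightness was not counted in these settings. No member was called lower with quantile normalization, alone or after normexp background. None was called lower with no filter on dim probes, with probes averaged per gene or in the authors' deposited table. In these 5 settings, in that order, limma gave 30, 33, 33, 39 and 39 members at an unadjusted p under 0.05. Of all genes, 7293 of 22490, 7181 of 22490, 8833 of 36942, 8855 of 22490 and 7180 of 21275 passed that threshold, in either direction. Without any 1 array no gene of the table was called, members included, so these fits say nothing about single calls. No member was called higher in any of these. Of the 54 other replication genes, 2 were called in the main analysis and 3 when probes had to be well above background on all 4 arrays. The number was 35 with scaling to the median, 33 with the replicate block and 22 with a trend. With averaged probes it was 1, and with the authors' values it was 1, Mcm8 (limma, adjusted p = 0.0482). It was 0 with no filter, with quantile normalization and with normexp. The median difference of the members moved by more than the SD between arrays (0.33) with scaling to the median, to -1.68. With quantile normalization it was -0.82 and with normexp background and quantile normalization -0.83, weaker and just within that SD. When an array was left out it ran from -1.53 to -0.76. Without a filter the median of all genes was 0.23. Less genes of like brightness, the members' median ran from -1.06 to -0.46 when an array was left out and from -0.80 to -0.65 otherwise. With all 4 arrays, members lower without overlap numbered from 44 (authors' deposited table) to 48 (scaling to the median). In the main analysis they numbered 47, where 38.5% of all genes did so, and 73.2% and 75.2% in brightness classes 9 and 10. The share of all genes was not counted in the other settings. Named genes that changed direction were Rpa2, which turned positive with quantile normalization (0.17), with normexp (0.14), in the authors' deposited table (0.14), without control 1 (0.31) and without Junbfl/flCd4-Cre 2 (0.09), Pola2 without control 1 (0.040), Orc4 and Pole2 with averaged probes (0.024 and 0.34), and Junb without Junbfl/flCd4-Cre 1 (0.65). Over all arrays left out in turn, Rpa2 ran from -0.38 to 0.31, Pola2 from -0.67 to 0.040, Tfdp2 from -0.10 to 0.13 and Junb from -2.85 to 0.65. Scaling to the median turned Dbf4 (-0.26), Mcm9 (-0.21), Rbl2 (-0.26) and Tfdp2 (-0.52), the mean of probes Dbf4 (-0.39) and Tfdp2 (-0.022), and Tfdp2 was also negative in the authors' deposited table (-0.083), without control 2 (-0.03) and without Junbfl/flCd4-Cre 1 (-0.10). The cause of these changes was not tested. The slide and scan could not be fitted as blocks, since each holds all 4 arrays.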
